A study of Mus musculus with 18 samples.

Results

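The genes described here are 44 type I interferon-stimulated genes, chosen by symbol as genes known to rise when a cell receives type I interferon, and read from RNA-seq of subcutaneously grown mouse tumors. All 44 symbols were found once each among the 23284 RefSeq genes of the deposited tables. They comprise 4 nucleic acid sensors, 3 transcription factors, 4 genes of ISG15 conjugation or ubiquitin ligation, 3 IFIT genes, 7 OAS genes, 2 Mx genes, 3 RNA-acting enzymes, Rsad2 with its neighbor Cmpk2, 4 genes of ADP-ribosylation, 3 membrane or trafficking genes and 9 others.

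Tumors were grown from 3 mouse cancer cell lines and treated with cyclophosphamide (CPA), an alkylating drug, by i.p. injection at 140 mg/kg body weight by the sample labels, although the column titles of the LLC and B16F10 tables carry another dose. GL261 is a glioma line, LLC a Lewis lung carcinoma line and B16F10 a melanoma line. In C57BL/6 (B6) hosts, whose strain field reads C57BL/BNTac, the groups were CPA-treated and untreated GL261, CPA-treated and untreated LLC, and CPA-treated and untreated B16F10 tumors. In ICR scid hosts, which lack functional T and B cells, GL261 tumors were treated every 6 days (CPA/6d), every 9 days (CPA/9d) or left untreated. All mice were males, listed as 12 weeks old, and treated tumors were taken 6 days after the last injection. GL261 tumors had 2 injections and LLC and B16F10 tumors had 3, so that the number of injections and the tumor model cannot be told apart. Each group had 2 libraries, each from a pool of tumors, and so 18 libraries in all. A pool held 9 or 10 GL261(B6) tumors, 5 LLC tumors, 5 untreated or 4 and 3 treated B16F10 tumors, and 9 (CPA/6d), 12 (CPA/9d) or 6 (untreated) GL261(scid) tumors. Each line is a single cell line, and a bulk library mixes its cells with those of the host, so that fewer cells of a type and less RNA per cell cannot be told apart.

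Type I interferons, the interferon-α family and interferon-β, are secreted by cells whose sensors have met foreign or misplaced nucleic acid. They bind the IFNAR1/IFNAR2 receptor, whose kinases JAK1 and TYK2 signal to the nucleus through the complex ISGF3. With its subunits STAT2 and IRF9 this complex binds interferon-stimulated response elements near the start of its target genes. The products include further sensors, transcription factors that amplify the signal, antiviral effectors and inhibitors of the pathway itself. In tumors the same pathway can be engaged by DNA-damaging drugs and links injured tumor cells to the recruitment of immune cells.

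The response element has a simple core, a pair of GAAA runs spaced by any 2 bases, and it is printed here because it is the sequence that ISGF3 binds. Of the 44 members, 32 matched a RefSeq promoter window (build GRCm38.p6, 250 bases before to 50 after the start). Oas1b, Dhx58, Oas2, Parp14, Rtp4, Usp18, Tor3a, Zbp1, Ifi27l2a, Mx1, Mx2 and Parp9 had no match. GAAA NN GAAA, with N any base, on either strand and with overlapping matches each counted, lay in the windows of 13 of the 32 members (40.6%), against 3.99% of the 27025 genes of that table. In the 250 bases before the start alone, it lay in 9 of 32 (28.1%), against 3.46% of genes. The gamma-activated site TTCNNNGAA, the element of the type II interferon response, lay in 8 of 32 members (25%), against 9.55% of genes. Of the members with the core, 6 are printed as examples, with 1 member without it, each as the 160 bases before the annotated start, 5′ to 3′ on the strand of the gene, with the core in capitals on whichever strand it lay.
Isg15 (chr4:156200819-156200978, minus strand): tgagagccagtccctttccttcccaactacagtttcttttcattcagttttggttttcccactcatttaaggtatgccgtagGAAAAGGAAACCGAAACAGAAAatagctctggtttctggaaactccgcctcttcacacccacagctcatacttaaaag
Ifit1 (chr19:34640729-34640888, plus strand): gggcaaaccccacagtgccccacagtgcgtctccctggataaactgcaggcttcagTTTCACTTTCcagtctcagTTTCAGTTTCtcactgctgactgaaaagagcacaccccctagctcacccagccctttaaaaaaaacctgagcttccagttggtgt
Ifit3 (chr19:34583369-34583528, plus strand): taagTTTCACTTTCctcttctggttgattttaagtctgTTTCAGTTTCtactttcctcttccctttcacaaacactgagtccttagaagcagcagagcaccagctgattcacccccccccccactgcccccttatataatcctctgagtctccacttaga
Rsad2 (chr12:26456453-26456612, minus strand): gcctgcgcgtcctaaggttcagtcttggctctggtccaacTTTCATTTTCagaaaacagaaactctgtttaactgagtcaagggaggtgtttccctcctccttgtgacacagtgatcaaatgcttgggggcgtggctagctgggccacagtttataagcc
Oas1a (chr5:120907526-120907685, minus strand): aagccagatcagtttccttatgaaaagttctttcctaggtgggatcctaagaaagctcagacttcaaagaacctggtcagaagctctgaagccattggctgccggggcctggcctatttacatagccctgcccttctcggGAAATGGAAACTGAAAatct
Oas1g (chr5:120887614-120887773, minus strand): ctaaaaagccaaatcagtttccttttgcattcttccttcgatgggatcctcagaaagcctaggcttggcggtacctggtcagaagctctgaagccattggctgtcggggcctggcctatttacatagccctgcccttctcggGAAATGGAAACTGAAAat
Ifit2 (chr19:34550534-34550693, plus strand): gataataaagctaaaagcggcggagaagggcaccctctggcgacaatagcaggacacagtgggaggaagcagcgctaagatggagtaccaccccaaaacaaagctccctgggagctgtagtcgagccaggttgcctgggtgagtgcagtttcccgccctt
Isg15, the ubiquitin-like modifier, had 3 overlapping cores that began 78, 72 and 66 bases before its start. Ifit1 had 2 cores, at 104 and 85 bases, and Ifit3 had 2, at 156 and 122 bases. The paralogs Oas1a and Oas1g each carried an overlapping pair within 20 bases of the start, in nearly the same sequence. No core was found in the Ifit2 window, which says only that these letters do not occur there.

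Levels are given as normalized reads, that is, reads per 10000000 after scaling for library composition, with the pool of more reads first. Per-pool reads were recovered from the deposited group means, and totals ran from 6169217 to 15979644 reads per library. A gene with 0 reads could still have had up to 3, which is 1.96 to 4.31 normalized reads depending on the library, and this limit covers counting error only. B6 and scid libraries were made with different kits and scaled separately, so hosts were compared by their responses and not by their levels. Nothing states that the 2 pools of a group shared no cage or day, and p-values measure only the spread between pools. Melanocyte markers summed to 256732 and 277454 normalized reads in the treated and 209576 and 226578 in the untreated B16F10 pools, against at most 799.8 in any other group. GL261 tumors carried the oligodendrocyte-lineage genes Olig1, Olig2 and Sox10, with little Gfap. The 7 glial lineage markers, a list that holds these genes, summed to 7512 and 7842 in treated and 19298 and 19811 in untreated GL261(B6) pools. In B16F10 they summed to 10138 and 10335 in treated and 6333 and 6706 in untreated pools, so that the list is not particular to GL261. LLC tumors had the epithelial keratins Krt8 and Krt18, whereas the lung marker Sftpc, at 0 reads in both untreated pools, and the epithelial marker Epcam, at 2.72 and 2.83 normalized reads, were absent or nearly so. The 5 lung epithelium markers, a list that holds both keratins, summed to 5567 and 5775 in treated and 4914 and 5339 in untreated LLC pools. They were lower in the other B6 models, at 348 and 518 in treated and 1407 and 1919 in untreated GL261(B6) pools. In B16F10 pools they reached at most 22.9. Untreated GL261(scid) pools had 14009.8 and 15004 on their own scale, so that GL261 tumors can carry these markers too.

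Untreated GL261(B6) tumors expressed the members at far higher levels than the other B6 models. The median member had 588 normalized reads in untreated GL261(B6), 66.7 in untreated LLC and 93.0 in untreated B16F10 tumors, and 42 of 44 members had their highest mean in GL261(B6). Called higher means a fold above 2 with an unadjusted p under 0.001 in limma's moderated test. By this rule 37 members were higher and 0 lower in untreated GL261(B6) than in untreated LLC tumors, where 17.5% of all genes tested were called higher. At an unadjusted p under 0.05, 41 were higher and 2 lower (36.5% and 40.5% of all genes), and limma voom also called 37 and 0. Against untreated B16F10, 38 were higher and 0 lower (20.1% of all genes higher), and 39 and 0 by limma voom. At an unadjusted p under 0.05, 43 were higher and 0 lower (39.7% and 39.3% of all genes), and for 43 members both untreated GL261(B6) pools lay above both untreated B16F10 pools and for 0 below, against 44.9% and 44.6% of all genes. The median log2 difference of the members was 2.94 against LLC and 2.68 against B16F10, with all genes at -0.052 and 0.0042. These 2 comparisons share the untreated GL261(B6) pools. Ifit3, Oas1a, Oas1b, Oas1g, Mx1, Mx2 and Ifi44 passed the filter against LLC only through the GL261(B6) pools, and 30 of the remaining 37 members were called higher. Against B16F10 this was so for Oas1b, Oasl1, Mx1, Mx2 and Ifi44, and 33 of the remaining 39 were called higher.

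Zbp1, a sensor of Z-form nucleic acid, was higher in untreated GL261(B6) by 5.67 ± 0.17 on the log2 scale (estimate ± SE) against LLC and 4.64 ± 0.36 against B16F10. These values rest on 16 and 9 reads of Zbp1 in untreated LLC and 39 and 12 in untreated B16F10 pools. Ifi44, a cytoplasmic interferon-induced protein, was higher by 4.83 ± 0.25 and 5.22 ± 0.25, values that rest on 19 and 6 reads in untreated LLC and 9 and 5 in untreated B16F10 pools. Members that were close between the models included Adar (0.30 against LLC and 0.65 against B16F10) and Isg20 (-0.53 and -0.59). Untreated LLC and B16F10 did not differ in one direction: of 40 members that passed the filter, 5 were higher and 6 lower in LLC, against 18.6% and 17.8% of all genes. Oas1b, Mx1, Mx2 and Ifi44 did not pass it there. Per kilobase of annotated exon, Ifitm3 and Bst2, which encode antiviral membrane proteins, led in untreated GL261(B6) with 3297 and 3068 normalized reads per kilobase. The lowest there was Mx2 with 30.2.

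CPA raised most members in GL261(B6) and in B16F10 tumors, and in LLC tumors no member passed the test. In GL261(B6), 29 of 44 members were higher and 0 lower after CPA/6d, against 17.8% and 6.49% of all genes. The median member had 1395 normalized reads in treated and 588 in untreated GL261(B6) tumors, a median log2 fold change of 1.39, against -0.024 over all genes. For all 44 members both treated pools lay above both untreated pools, which held for 41.8% of all genes. All 44 were higher and 0 lower at an unadjusted p under 0.05, against 35.9% and 36.9% of all genes, and limma voom called 30 higher and 0 lower.

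In B16F10, 32 of 44 members were higher and 0 lower, against 6.22% and 3.12% of all genes. The median member had 363 normalized reads in treated and 93.0 in untreated B16F10 tumors, and the median log2 fold change was 1.78, with all genes at 0.0015. In 43 members both treated pools exceeded both untreated pools and in 0 lay below them, against 38.0% and 36.3% of all genes. With an unadjusted p under 0.05, 43 were higher (26.9% of all genes) and 0 lower, and limma voom called 33 higher and 0 lower. Oas1b, Oasl1, Mx1, Mx2 and Ifi44 reached the read minimum only through the treated pools, and 28 of the remaining 39 members were called higher.

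LLC gave 0 members higher and 0 lower of 43 tested by limma's trended test, and likewise 0 and 0 by limma voom, against 1.98% and 0.946% of all genes. With the unadjusted p under 0.05 alone, 10 members were higher and 4 lower, against 19.1% and 21.2% of all genes. Oas1g did not pass the filter. The median member had 85.9 normalized reads in treated and 66.7 in untreated LLC tumors, and the median log2 fold change was 0.13. Both treated pools lay above both untreated pools for 16 members and below them for 12, against 30.9% and 35.3% of all genes. For 25 of 43 members the 95% interval of the log2 fold change ended below a doubling, and for 18 it did not.

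The genes called in GL261(B6) and in B16F10 overlapped in part. Called in both were 21 members, which is 72.4% of those called in GL261(B6) and 65.6% of those called in B16F10. With 29 members called in GL261(B6) and 32 in B16F10, lists of this length must share many members. Whether the overlap exceeds what list length alone gives was not tested. Zbp1, Ifit2, Mx1, Dtx3l, Ifi27l2a, Epsti1, Tor3a and Trafd1 were called only in GL261(B6). Ddx58, Irf9, Isg15, Trim25, Oas1b, Cmpk2, Parp12, Bst2, Ifitm3, Ifi35 and Xaf1 were called only in B16F10, and Herc6, Eif2ak2, Adar and Isg20 in neither. Such lists do not show that a response differed. Tested directly, 8 members had a larger log2 response in B16F10 than in GL261(B6) and 1 a smaller response, against 4.43% and 6.25% of all genes. The 8 were Usp18, Ddx58, Xaf1, Ifit1, Ifi35, Rtp4, Ifitm3 and Irf9, with differences from 2.31 to 1.26 on the log2 scale, and the 1 was Ifit2. The 8 became 17 without the untreated B16F10 pool with more reads. In that group 30 of 39 members were higher in the pool with more reads, by a median of 0.29 on the log2 scale. The LLC response was smaller than the GL261(B6) response in 18 members and larger in 0 (12.7% and 5.57% of all genes), and 11 were smaller without the treated GL261(B6) pool with more reads. It was also smaller than the B16F10 response in 20 members and larger in 0, against 5.04% of all genes with a larger B16F10 response.

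**Figure D1:**
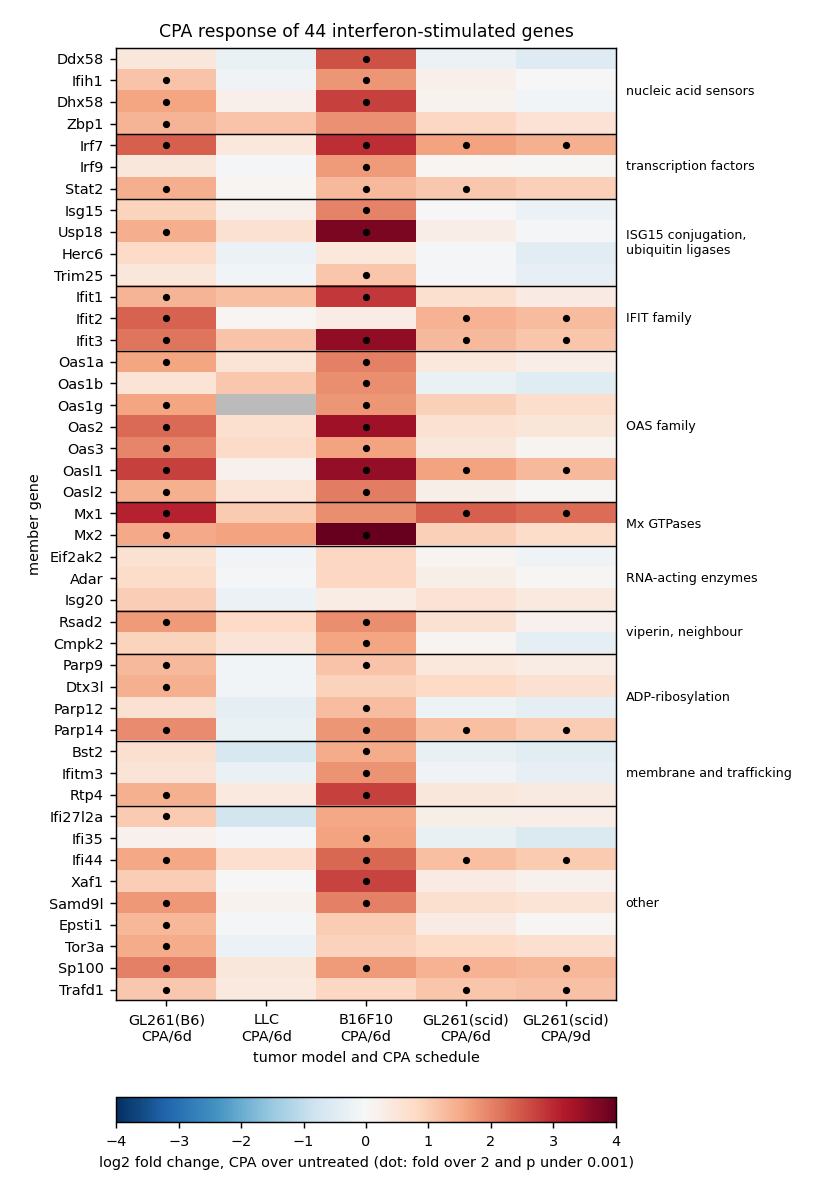
Heat map of the fitted log2 fold change of each of the 44 members (rows, grouped by role) in 5 CPA responses (columns), with red for higher after CPA, blue for lower, grey for Oas1g in LLC, which did not pass the filter, and black dots for a fold above 2 with p under 0.001. The B16F10 column holds 32 dots, GL261(B6) 29, the scid columns 10 and 9, and LLC 0.

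The larger folds in B16F10 started from lower levels and did not bring the genes to the level of treated GL261(B6) tumors. Treated GL261(B6) exceeded treated B16F10 in 33 members and fell below it in 0 (0 at p under 0.05 and 0 by limma voom), against 23.3% of all genes called higher. The median log2 difference was 1.75, where all genes stood at 0.11. Set side by side without a test, 30 members had both treated B16F10 pools below both untreated GL261(B6) pools, 9 had both above and 5 overlapped, against 46.3% and 42.5% of 13434 genes below and above. The 9 were Dhx58, Ifit3, Oas1a, Oasl1, Adar, Isg20, Rsad2, Ifitm3 and Samd9l. Treated LLC pools lay below both untreated GL261(B6) pools in 42 members and above them in 1, Samd9l, against 43.1% and 45% of 13326 genes. Treated GL261(B6) exceeded treated LLC in 42 members and was lower in 0 (22.7% of all genes higher, and Oas1g passing the filter only through GL261(B6)), with a median difference of 4.01.

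**Figure D2:**
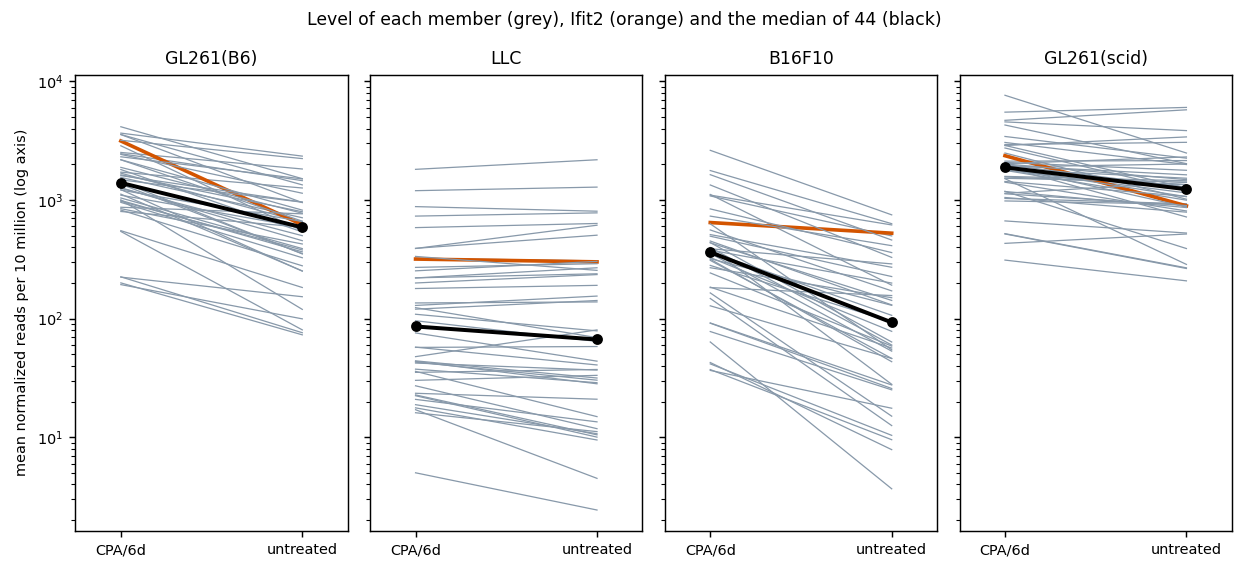
Mean normalized reads per 10000000 (log axis) of each of the 44 members in CPA/6d-treated tumors (left end of each line) and untreated tumors (right end) of 4 models, with the median of the members in black and Ifit2 in orange. The median was 1395 in treated and 588 in untreated GL261(B6), 85.9 and 66.7 in LLC, 363 and 93.0 in B16F10, and 1884 and 1233 in GL261(scid), the last on its own scale.

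In GL261(scid) the share of members called higher, 22.7% after CPA/6d and 20.5% after CPA/9d, was near that of all genes. After CPA/6d, 10 of 44 members were higher and 0 lower, against 18.3% and 9.17% of all genes. The median log2 fold change was 0.43, against -0.051 for all genes. The 10 were Irf7, Stat2, Ifit2, Ifit3, Oasl1, Mx1, Parp14, Ifi44, Sp100 and Trafd1. At an unadjusted p under 0.05, 32 were higher and 6 lower (37.2% and 41.2% of all genes), and limma voom called 10 higher and 0 lower. After CPA/9d, which used the same untreated pools, 9 were higher and 0 lower, against 20.0% and 11.3% of all genes, and limma voom called 9 and 0. Past an unadjusted p of 0.05, 25 were higher and 11 lower (37.7% and 41.4% of all genes). Both CPA/9d pools lay above both untreated pools for 29 members and below them for 12, against 42.9% and 46.5% of all genes.

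The response was smaller in scid than in B6 hosts for 9 members and larger for 0, against 1.30% and 0.962% of all genes. These were Oas2, Oas3, Dhx58, Usp18, Oas1a, Oasl2, Oasl1, Rsad2 and Samd9l, with log2 differences of -1.66 to -1.11. The median difference over the members was -0.76, against -0.096 for all genes, and 41 members were smaller and 0 larger in scid at an unadjusted p under 0.05, against 23.4% and 9.54% of all genes. The scid defect, the mouse strain (ICR against C57BL/6) and the library kit cannot be told apart in this comparison. CPA/9d against CPA/6d gave 0 members higher and 0 lower by limma's trended test and by limma voom, against 0.732% and 0.0201% of all genes. Past an unadjusted p of 0.05, 0 were higher and 35 lower (11.7% and 9.93% of all genes). Both CPA/9d pools lay below both CPA/6d pools for 41 members and above them for 0, against 26.6% and 25.8% of all genes. The median log2 difference was -0.19.

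**Figure D3:**
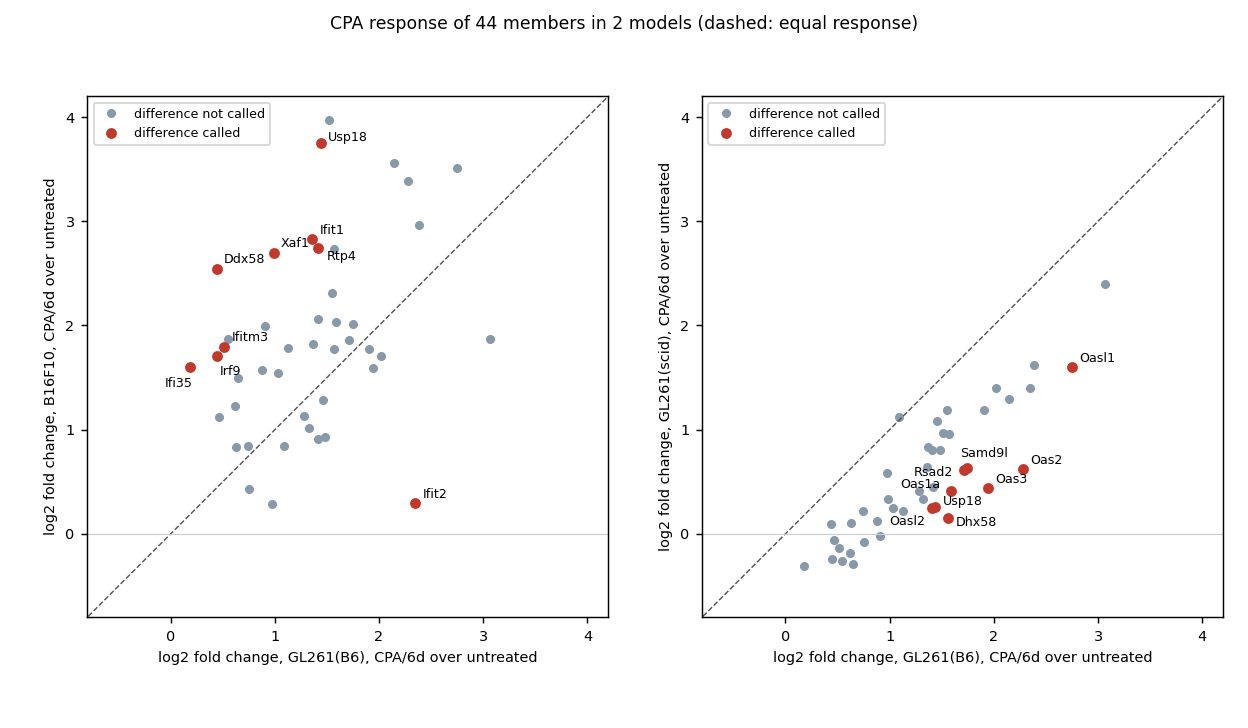
Log2 fold change of each member in B16F10 (left panel, y axis) or GL261(scid) (right panel, y axis) against that in GL261(B6) (x axes), all CPA/6d over untreated, with red for members whose difference in response passed the test and a dashed line of equal response. In the left panel 8 red points lie above the line and Ifit2 below it, and in the right panel all 9 red points lie below it.

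Among members, those with low untreated levels tended to have the larger folds. Per kilobase of exon, the 14 members lowest in untreated GL261(B6) had a median log2 fold change of 1.58 and the 14 highest 0.97. The corresponding sets of 14, by untreated level in each model, gave 1.87 and 1.36 in B16F10, 0.72 and -0.11 in LLC and 1.04 and 0.11 in GL261(scid) CPA/6d. Pearson's r across 44 members was -0.54 in GL261(B6), -0.49 in B16F10 and -0.52 in GL261(scid) CPA/6d, and -0.77 across 43 in LLC. These are descriptions across genes of the same libraries. The untreated level enters both axes.

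Among the nucleic acid sensors, Ddx58 encodes RIG-I and Ifih1 encodes MDA5, the receptors of viral RNA in the cytosol, and Dhx58 encodes their regulator LGP2. Ddx58 (chr4:40150806-40186861, mm9 as for all gene coordinates that follow, minus strand) had 1766 and 1670.4 normalized reads in CPA-treated and 1287 and 1239 in untreated GL261(B6) pools. In B16F10 it had 1079 and 1148 in treated and 168 and 215 in untreated pools, and in LLC 249 and 192.2 in treated and 217 and 319.9 in untreated pools. In scid hosts the pools held 2806 and 2956 after CPA/6d, 2432 and 2284 after CPA/9d and 3406 and 3403 untreated. Treated B16F10 thus stood clear of untreated B16F10, LLC pools overlapped, and the scid pools were lower after treatment. The log2 fold change was 2.54 ± 0.14 in B16F10 (adjusted p = 1.4e-05, limma) and 0.44 ± 0.066 in GL261(B6), where the fold stayed below 2. The response in B16F10 was larger by 2.10 ± 0.16 (adjusted p = 2.4e-05, limma).

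Dhx58 had 866 and 779 normalized reads in treated and 251 and 307 in untreated GL261(B6), and 325 and 385 in treated and 62.2 and 44.3 in untreated B16F10 pools. LLC pools had 46.6 and 37.9 treated and 32.7 and 41.1 untreated, and scid pools 1006 and 1056 (CPA/6d), 889 and 840.1 (CPA/9d) and 939 and 922 (untreated). Both treated pools were higher in GL261(B6), B16F10 and scid CPA/6d, by a small margin in the last, and the LLC pools overlapped. Its log2 fold change was 1.56 in GL261(B6) and 2.73 in B16F10, and the response was smaller in scid than in B6 (scid minus B6 -1.41 ± 0.13) with an adjusted p of 5.5e-05 (limma). Ifih1 rose by 1.13 in GL261(B6) and 1.78 in B16F10. Zbp1 rose by 1.37 in GL261(B6), while its 1.82 in B16F10 missed the threshold (adjusted p = 0.0057, limma).

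The transcription factors include Irf7, the factor that amplifies interferon-α production, and the ISGF3 subunits Irf9 and Stat2. Irf7 (chr7:148448605-148452380, minus strand, overlapping Phrf1) had 2865 and 2867 normalized reads in treated and 519.6 and 579.9 in untreated GL261(B6) pools. It had 369 and 506 in treated and 96.2 and 30.9 in untreated B16F10, and 75.8 and 39.2 in treated and 34.7 and 46.7 in untreated LLC pools. The scid pools had 7810.0 and 7469 after CPA/6d, 6548 and 6791 after CPA/9d and 2406 and 2573 untreated. Irf7 was thus higher in every treated pool of GL261 in both hosts and of B16F10, and overlapped in LLC. The log2 fold changes were 2.38 ± 0.072 in GL261(B6), 2.96 ± 0.43 in B16F10, 1.62 ± 0.049 after CPA/6d and 1.42 ± 0.053 after CPA/9d in scid, all called, and 0.43 ± 0.31 in LLC. B16F10 and GL261(B6) were not told apart in this response, with a difference of 0.58 (95% interval -0.69 to 1.84). Stat2 rose by 1.46 in GL261(B6), 1.29 in B16F10 and 1.08 in scid CPA/6d. Irf9 rose in B16F10 (1.70) and stayed under a fold of 2 in GL261(B6) (0.44), and the responses differed by 1.26 ± 0.14.

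**Figure D4:**
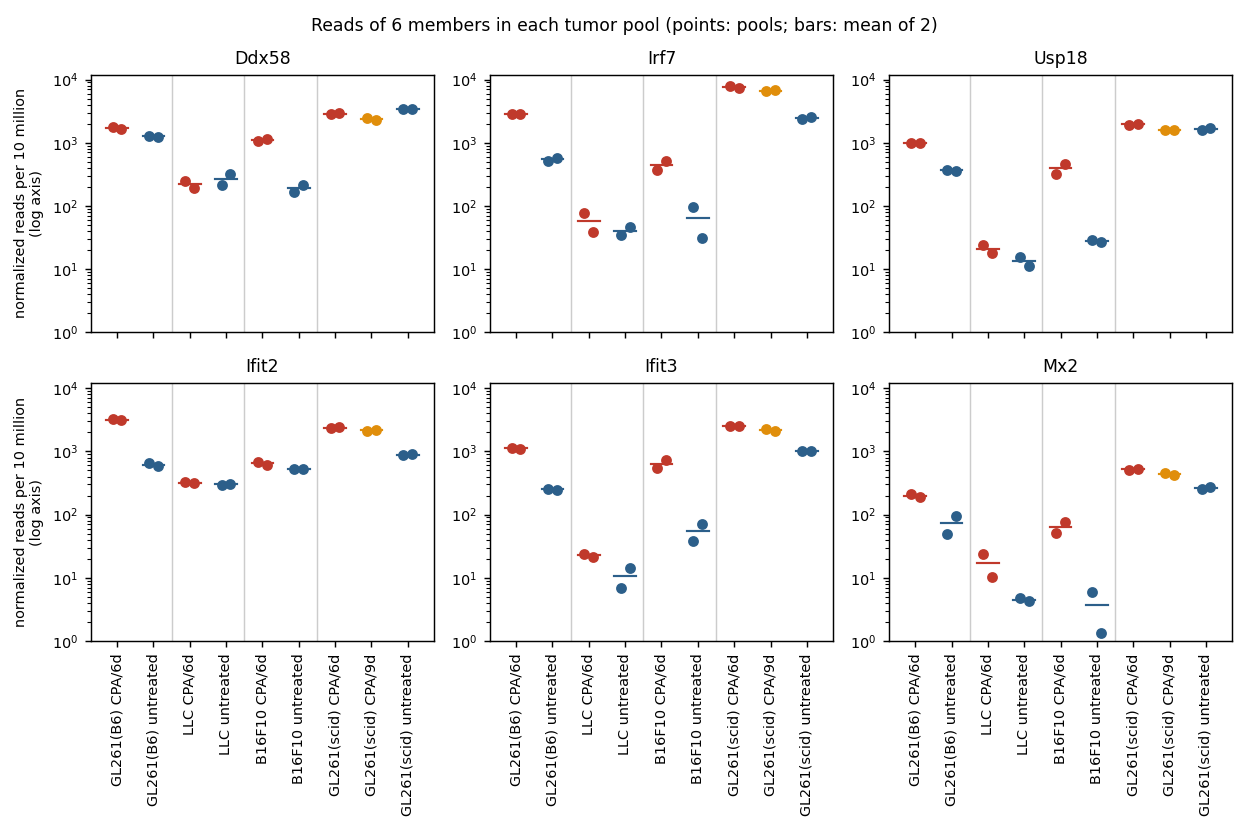
Normalized reads per 10000000 (log axis) of 6 members in each of the 18 pools, with red for CPA/6d, orange for CPA/9d and blue for untreated; points are pools and bars the mean of 2. Ddx58, Usp18, Ifit3 and Mx2 separate treated from untreated B16F10 pools, whereas Ifit2 lies at 679 and 612 in treated and 523 and 527 in untreated B16F10 pools.

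ISG15 conjugation attaches the modifier encoded by Isg15 to target proteins, Herc6 is its ligase in mouse, and Usp18 removes the modifier and dampens signaling at the interferon receptor. Trim25 is a ubiquitin ligase that activates RIG-I. Usp18 had 1005 and 979.7 normalized reads in treated and 371 and 360.3 in untreated GL261(B6), and 322 and 468 in treated and 29.1 and 26.8 in untreated B16F10 pools. LLC pools had 24.0 and 17.7 treated and 15.6 and 11.3 untreated, and scid pools 1924 and 1981 (CPA/6d), 1599.8 and 1569 (CPA/9d) and 1582 and 1679.8 (untreated). Untreated B16F10 was thus far below untreated GL261(B6), and its treated pools lay on either side of the untreated GL261(B6) pools. The log2 fold change of Usp18 was 3.75 ± 0.23 in B16F10 (adjusted p = 1.4e-05, limma) and 1.44 ± 0.079 in GL261(B6), a difference of 2.31 ± 0.23 (adjusted p = 0.00011). In scid hosts it was 0.26, and the difference, scid minus B6, was -1.18 ± 0.078.

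Trim25 had 2538 and 2498 normalized reads in treated and 1754 and 1899 in untreated GL261(B6), and 1052 and 1113 in treated and 540.4 and 456 in untreated B16F10 pools. LLC pools had 1212 and 1186 treated and 1266 and 1304 untreated, and scid pools 2867 and 3001 (CPA/6d), 2517 and 2384 (CPA/9d) and 3088 and 3041 (untreated). Treated B16F10 stayed below untreated GL261(B6), and both treated LLC pools lay below both untreated LLC pools. Trim25 rose by 1.12 in B16F10 and stayed below a fold of 2 in GL261(B6) (0.46). Isg15 rose by 2.00 in B16F10, while its 0.91 in GL261(B6) was under a fold of 2, and Herc6 was called in neither (0.43 and 0.75).

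The IFIT proteins bind foreign RNA and block its translation, and their genes lie together on chr19 within 99.3 kb (chr19:34625184-34724499). Ifit2 and Ifit3 behaved differently there. Ifit2 had 3201 and 3093 normalized reads in treated and 655 and 583 in untreated GL261(B6), and 679 and 612 in treated and 523 and 527 in untreated B16F10 pools. LLC pools had 324 and 312 treated and 299 and 303 untreated, and scid pools 2337 and 2392 (CPA/6d), 2141 and 2195 (CPA/9d) and 882 and 903 (untreated). Untreated B16F10 tumors thus had about as much Ifit2 as untreated GL261(B6) tumors, and after CPA GL261(B6) was far above. The log2 fold change was 2.35 ± 0.073 in GL261(B6) and 0.30 ± 0.11 in B16F10 (adjusted p = 0.061, limma, below the fold required). The response was smaller in B16F10, with B16F10 minus GL261(B6) at -2.05 ± 0.12 (adjusted p = 8.9e-06, limma).

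Ifit3 had 1139.5 and 1102 normalized reads in treated and 257 and 248 in untreated GL261(B6), and 537 and 723 in treated and 38.1 and 71.1 in untreated B16F10 pools. LLC pools had 24.0 and 21.5 treated and 6.80 and 14.2 untreated, and scid pools 2491 and 2489 (CPA/6d), 2267 and 2100.3 (CPA/9d) and 1025 and 1008 (untreated). It was higher in both treated pools of every model, LLC included. The log2 fold change was 3.55 ± 0.28 in B16F10, 2.15 ± 0.082 in GL261(B6), 1.29 ± 0.045 in scid CPA/6d and 1.13 ± 0.41 in LLC, where it was not called (adjusted p = 0.063, limma). Ifit1 rose by 2.83 in B16F10 and 1.36 in GL261(B6), a difference of 1.47 ± 0.21, and was at 1.19 in LLC (adjusted p = 0.019, limma, not called). Of the 50-base words of the Ifit3 transcripts, 51.5% also occur in the annotated gene I830012O16Rik, so its count could be split between copies. No such word of Ifit2 was shared.

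OAS enzymes make 2′-5′-linked oligoadenylates that activate RNase L, although some mouse members, Oasl1 among them, lack that activity. Of the 7 genes, 5 form a cluster of 177 kb on chr5 (chr5:121180342-121357536), and Oasl1 and Oasl2 lie side by side elsewhere on that chromosome. All 7 were called higher in B16F10 and 6 in GL261(B6), the exception being Oas1b (0.55), against 6.22% and 17.8% of all genes. In B16F10, Oas1b and Oasl1 reached the read minimum only through the treated pools. Oasl2 had 3624 and 3509 normalized reads in treated and 1368 and 1316 in untreated GL261(B6), and 208 and 277 in treated and 73.2 and 44.3 in untreated B16F10 pools. LLC pools had 111 and 80.9 treated and 60.6 and 68.0 untreated, and scid pools 4453 and 4662 (CPA/6d), 3975 and 4003 (CPA/9d) and 3780.0 and 3914 (untreated). Treated B16F10 remained well below untreated GL261(B6). Its log2 fold change was 1.41 ± 0.062 in GL261(B6) and 2.06 ± 0.26 in B16F10, against 0.24 ± 0.045 in scid CPA/6d.

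Oasl1, an inhibitor of Irf7 translation in mouse, had 539.7 and 547 normalized reads in treated and 87.6 and 73.2 in untreated GL261(B6), and 117 and 179 in treated and 17.0 and 8.05 in untreated B16F10 pools. LLC pools had 29.3 and 17.7 treated and 14.97 and 26.9 untreated, and scid pools 1224 and 1142 (CPA/6d), 936 and 1005 (CPA/9d) and 387 and 393 (untreated). Only the LLC pools overlapped. The log2 fold change was 3.51 ± 0.38 in B16F10 and 2.75 ± 0.13 in GL261(B6), and with 10 in place of 1 added before the log, 2.81 and 2.62, untreated B16F10 pools having 17 and 6 reads. The difference between hosts, scid minus B6, was -1.15 ± 0.13. Oas2 rose by 3.39 in B16F10 and 2.28 in GL261(B6), Oas3 by 1.59 and 1.94, Oas1a by 2.03 and 1.59, and Oas1g by 1.78 and 1.57. Oas2 and Oas3 had the widest gaps between hosts, scid minus B6 being -1.66 ± 0.074 and -1.50 ± 0.078. Oas1a and Oas1g share 53.0% and 50.1% of their 50-base words, so reads could be assigned to either.

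Mx proteins are GTPases that block viral entry or transcription, and Mx1 and Mx2 lie within 114 kb on chr16 (chr16:97668642-97782506). Mx1 had 1037 and 968 normalized reads in treated and 106 and 133 in untreated GL261(B6), and 32.0 and 51.1 in treated and 10.0 and 10.7 in untreated B16F10 pools. LLC pools had 24.0 and 11.4 treated and 3.40 and 15.6 untreated, and scid pools 1529 and 1496 (CPA/6d), 1423 and 1264 (CPA/9d) and 294 and 279 (untreated). Mx1 had the largest fold of any member in GL261(B6), 3.06 ± 0.12, and in scid CPA/6d, 2.40 ± 0.058. In B16F10 its 1.87 ± 0.39 lay just outside the rule, by its p (adjusted p = 0.0051, limma).

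Mx2 had 209.8 and 190.7 normalized reads in treated and 49.9 and 96.2 in untreated GL261(B6), and 51.8 and 75.4 in treated and 6.02 and 1.34 in untreated B16F10 pools, the last being 6 and 1 reads. LLC pools had 24.0 and 10.1 treated and 4.76 and 4.25 untreated, and scid pools 515 and 520.3 (CPA/6d), 452 and 423 (CPA/9d) and 257 and 273 (untreated). Both treated pools were higher than both untreated pools in every model. The fitted log2 fold change of Mx2 in B16F10, 3.97 ± 0.57, was the largest of any member only with 1 read added before the log. With 10 added it was 2.43, below Usp18 at 3.39 and Ifit3 at 3.34.

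The RNA-acting enzymes Eif2ak2 (the kinase PKR), Adar (an RNA-editing deaminase) and Isg20 (an exonuclease) gave no calls. None was higher by the rule in any of the 5 responses by limma's trended test. At an unadjusted p under 0.05 all 3 were higher in GL261(B6) and 2 in B16F10, against 35.9% and 26.9% of all genes. The limma voom test called 1 in GL261(B6) and 0 in B16F10. Adar had 1623 and 1590.1 normalized reads in treated and 953 and 969 in untreated GL261(B6), and 1110.2 and 1090.3 in treated and 679 and 554 in untreated B16F10 pools. LLC pools had 743 and 721 treated and 780.4 and 779 untreated, and scid pools 2081 and 2069 (CPA/6d), 1887 and 1808 (CPA/9d) and 1761 and 1801 (untreated). Untreated B6 pools of the 3 models lay between 554 and 969. The log2 fold changes of Adar were 0.74 in GL261(B6) and 0.84 in B16F10. Isg20 had 203 and 185 normalized reads in treated and 81.5 and 118 in untreated GL261(B6), and 155 and 210.0 in treated and 209 and 105 in untreated B16F10 pools. LLC pools had 129 and 111 treated and 143 and 142 untreated, and scid pools 311 and 312 (CPA/6d), 282 and 267 (CPA/9d) and 210.3 and 206 (untreated). It was the smallest response in B16F10, 0.29 ± 0.30, where the pools overlapped.

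Rsad2 encodes viperin, which makes a chain-terminating nucleotide, and Cmpk2, a nucleotide kinase, lies head to head with it on chr12 (chr12:27127618-27164700). Rsad2 had 2306 and 2060.2 normalized reads in treated and 638 and 689 in untreated GL261(B6), and 1479.5 and 1792 in treated and 564 and 356 in untreated B16F10 pools. LLC pools had 150.2 and 97.3 treated and 61.9 and 76.4 untreated, and scid pools 3264 and 3603 (CPA/6d), 2566 and 2496 (CPA/9d) and 2123 and 2384 (untreated). Rsad2 in untreated B16F10 was below untreated GL261(B6) and above untreated LLC (LLC minus B16F10 -2.69 ± 0.23 on the log2 scale). It rose by 1.72 ± 0.077 in GL261(B6) and 1.86 ± 0.20 in B16F10. Cmpk2 rose by 1.57 in B16F10 and was at 0.88 in GL261(B6), under a fold of 2.

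Parp14, Parp9 and Parp12 transfer ADP-ribose to other proteins, and Dtx3l is the ubiquitin ligase partner of Parp9. Parp14, Dtx3l and Parp9 lie within 139.7 kb on chr16, and Dtx3l and Parp9 overlap on opposite strands, so that reads of the overlap could be given to either. Parp14 had 3630.2 and 3499 normalized reads in treated and 969 and 933 in untreated GL261(B6), and 412 and 489.9 in treated and 132 and 129 in untreated B16F10 pools. LLC pools had 249 and 257 treated and 267 and 341 untreated, and scid pools 2737 and 2755 (CPA/6d), 2458 and 2388 (CPA/9d) and 1213 and 1187 (untreated). Parp14 was higher in all treated GL261 and B16F10 pools and lower in both treated LLC pools. Its log2 fold change was 1.91 ± 0.063 in GL261(B6), 1.78 ± 0.15 in B16F10, 1.19 ± 0.045 in scid CPA/6d and -0.25 ± 0.12 in LLC, the last not called. Parp9 rose by 1.28 in GL261(B6) and 1.13 in B16F10, Dtx3l by 1.41 in GL261(B6) and Parp12 by 1.23 in B16F10.

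Ifitm3 blocks fusion of viruses in endosomes, Bst2 (tetherin) holds budding virus at the membrane, and Rtp4 is an interferon-induced trafficking protein. Ifitm3 had 3137 and 3241 normalized reads in treated and 2227 and 2244 in untreated GL261(B6), and 2262 and 2985 in treated and 794 and 706 in untreated B16F10 pools. LLC pools had 1891 and 1737 treated and 2169 and 2199.9 untreated, and scid pools 5641 and 5367 (CPA/6d), 4819 and 4783 (CPA/9d) and 5869.9 and 6201 (untreated). Per kilobase of exon Ifitm3 was the highest member in every untreated group. Its log2 fold change was 1.79 ± 0.14 in B16F10 and 0.51 ± 0.059 in GL261(B6), a difference of 1.28 ± 0.17 (adjusted p = 0.00045, limma). Rtp4 had 1076 and 1005 normalized reads in treated and 385 and 395 in untreated GL261(B6), and 337 and 283 in treated and 56.1 and 36.2 in untreated B16F10 pools. LLC pools had 57.8 and 30.3 treated and 30.6 and 32.6 untreated, and scid pools 1200.4 and 1159 (CPA/6d), 1129 and 1083 (CPA/9d) and 850.3 and 878 (untreated). Rtp4 rose by 2.75 ± 0.24 in B16F10 and 1.41 ± 0.080 in GL261(B6). Bst2 rose by 1.50 in B16F10 and was at 0.65 in GL261(B6).

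The 9 other members have less settled or other roles. Samd9l, an antiviral factor and growth suppressor, had 1831 and 1783 normalized reads in treated and 567 and 509.6 in untreated GL261(B6), and 1541 and 1137 in treated and 304 and 353 in untreated B16F10 pools. LLC pools had 929.5 and 831 treated and 789 and 821 untreated, and scid pools 1964 and 2004 (CPA/6d), 1855 and 1849 (CPA/9d) and 1283 and 1274 (untreated). Both untreated LLC pools were above both untreated GL261(B6) pools, as was so for 1 other member, Isg20. Samd9l rose by 1.75 ± 0.075 in GL261(B6) and 2.01 ± 0.16 in B16F10. Xaf1, a promoter of apoptosis, had 845 and 845 normalized reads in treated and 428 and 423 in untreated GL261(B6), and 335 and 460.3 in treated and 66.2 and 53.7 in untreated B16F10 pools. LLC pools had 56.3 and 58.2 treated and 44.2 and 72.2 untreated, and scid pools 1081 and 1176 (CPA/6d), 1051 and 989 (CPA/9d) and 865 and 929.8 (untreated). Its fold was larger in B16F10, 2.70 ± 0.21, than in GL261(B6), 0.99 ± 0.078, by 1.71 ± 0.22 (adjusted p = 0.00046, limma).

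Ifi35 and Ifi27l2a had the smallest responses of any member in GL261 and in LLC. Ifi35 had 915 and 824 normalized reads in treated and 769 and 761 in untreated GL261(B6), and 399 and 472 in treated and 145 and 139.5 in untreated B16F10 pools. LLC pools had 183 and 176 treated and 172 and 209.5 untreated, and scid pools 1107 and 1172 (CPA/6d), 1039.6 and 853 (CPA/9d) and 1381 and 1433 (untreated). It was at 0.18 ± 0.078 in GL261(B6), at -0.30 ± 0.052 and -0.58 ± 0.084 in scid CPA/6d and CPA/9d, and rose in B16F10 (1.60 ± 0.15). Ifi27l2a had 1617 and 1645 normalized reads in treated and 824 and 769 in untreated GL261(B6), and 106 and 151 in treated and 64.2 and 28.2 in untreated B16F10 pools. LLC pools had 41.3 and 54.4 treated and 67.4 and 93.4 untreated, and scid pools 1918 and 1719 (CPA/6d), 1928 and 1731 (CPA/9d) and 1535 and 1518 (untreated). Both treated LLC pools were below both untreated LLC pools, with -0.73 ± 0.23, not called (adjusted p = 0.040, limma). It shares 40.8% of its 50-base words with Ifi27l2b, which it overlaps. In GL261(B6), Sp100 rose by 2.02, Ifi44 by 1.55, Tor3a by 1.48, Epsti1 by 1.32 and Trafd1 by 1.09, and in B16F10 Ifi44 rose by 2.31 and Sp100 by 1.71.

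The interferon genes themselves gave few reads in any tumor. The 16 type I interferon genes analysed (Ifnb1, 11 Ifna genes, Ifnab, Ifne, Ifnk and Ifnz) gave 7 reads in all in treated and 6 in untreated GL261(B6) tumors, 2 and 5 in LLC, and 1 and 1 in B16F10. In scid tumors they gave 40 after CPA/6d, 32 after CPA/9d and 12 untreated. Ifnb1 gave 0 and 0 reads in the treated and 0 and 0 in the untreated B16F10 pools, so that its level was not detectable at this depth, and 14 and 9 reads in scid CPA/6d, 4 and 6 in CPA/9d and 2 and 1 in untreated pools. Ifng, the type II interferon that activates part of the same gene set, had 89.7 and 86.3 normalized reads in treated and 13.4 and 7.18 in untreated GL261(B6) pools, a log2 fold change of 3.04 ± 0.33 (adjusted p = 3.4e-06, limma). In B16F10 it gave 0 and 0 reads in treated and 1 and 0 in untreated pools, and in LLC 0 in all 4. Ifna15 and Ifna16 were not analysed here.

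The receptor subunit gene Ifnar2 rose by 1.29 in GL261(B6) and was at 0.31 in B16F10, and Ifnar1 was at 0.77 and -0.22. Among 14 inducers of interferon tested, 9 were higher in GL261(B6), 1 in B16F10, 0 in LLC and 6 in scid CPA/6d, against 17.8%, 6.22%, 1.98% and 18.3% of all genes. The 1 in B16F10 is 7.14% of the list, near the share of all genes. Tlr9, a DNA sensor of leukocytes, rose by 3.11 in GL261(B6) and 3.47 in scid CPA/6d, and Irf5, a factor of myeloid cells, was the 1 that rose in B16F10 (1.27). Of 6 inhibitors of the pathway, Socs1 and Ptpn6 rose in GL261(B6), by 1.27 and 2.13, where 17.8% of all genes were higher. None was called in B16F10, where limma voom also called 0. There 4 were higher at an unadjusted p under 0.05, against 26.9% of all genes. In LLC 0 genes of the inducer and inhibitor lists passed by either limma test. At an unadjusted p under 0.05, 2 were higher and 6 lower there, against 19.1% and 21.2% of all genes.

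Markers of host immune cells moved with the members in some models and not in others. Of all genes, 17.8% were called higher and 6.49% lower in GL261(B6), and 6.22% and 3.12% in B16F10. In GL261(B6), 9 macrophage markers summed to 37408 and 40739 normalized reads in treated and 5998 and 6359 in untreated pools, and all 9 rose. The 6 T cell markers summed to 1919 and 2329 in treated and 275 and 301 in untreated pools, and all 6 rose. In B16F10, 8 of 9 macrophage markers rose, to sums of 4651 and 5562 in treated against 1642 and 2042 in untreated pools. There the T cell markers summed to 19.8 and 20.2 in treated and 10.7 and 24.1 in untreated pools, the 4 NK cell markers to 14.3 and 14.8 in treated and 2.68 and 8.02 in untreated pools, and none of the 10 passed the filter. The 7 glial lineage markers summed to 7512 and 7842 in treated and 19298 and 19811 in untreated GL261(B6) pools, with 4 lower and 0 higher. The members' own sum was 21497 and 23315 in treated and 7035 and 8320.3 in untreated B16F10, and 70506 and 73099 in treated and 30992 and 31680.1 in untreated GL261(B6) pools.

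In GL261(scid), all 9 macrophage markers rose after CPA/6d, to 33516 and 35380.4 in treated against 4587 and 4928 in untreated pools, and 3 of 4 NK cell markers rose. The shares of all genes called higher and lower were 18.3% and 9.17% in scid CPA/6d, and 1.98% and 0.946% in LLC. The 6 T cell markers summed to 302 and 312 after CPA/6d and 46.4 and 53.8 untreated, although scid hosts lack functional T cells. What that list reflects was not tested. The glial lineage markers summed to 12295 and 12782 after CPA/6d and 26533 and 28807 untreated, with 3 of 7 lower and 0 higher. The members' sum there was 93355 and 94251 after CPA/6d, 80448 and 83246 after CPA/9d and 67849 and 69350.0 untreated. In LLC the macrophage markers summed to 5521 and 6315 in treated and 6576 and 8334 in untreated pools, with 1 lower and none higher. The 4 inflammatory monocyte markers (Ly6c2, Ccr2, Fn1 and Vcan) summed there to 50533 and 54853 in treated and 25502 and 27680.3 in untreated pools. Only 1 of these 4 was called higher, and whether the sum reflects monocytes was not tested. The leukocyte marker Ptprc had 244 and 279 normalized reads in treated and 293 and 336 in untreated LLC pools. The neutrophil markers summed to 1163 and 2992 in treated and 607 and 799 in untreated LLC pools, with 2 of 4 tested higher. The members summed to 9316 and 10217 in treated and 10135 and 10697 in untreated pools. Plasmacytoid dendritic cells are strong producers of type I interferon. Their 4 markers summed to 200.3 and 206 in treated and 34.1 and 40.2 in untreated GL261(B6) pools, where all 4 rose, against 17.8% of all genes. In B16F10 they summed to 19.8 and 25.6 in treated and 17.4 and 24.1 in untreated pools, and in LLC to 12.8 and 13.9 in treated and 2.83 and 5.44 in untreated pools. In GL261(scid) they summed to 159.6 and 172 after CPA/6d, 113 and 114 after CPA/9d and 40.5 and 42.9 untreated. The part of immune or tumor cell content in the members' levels was not tested.

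**Figure D5:**
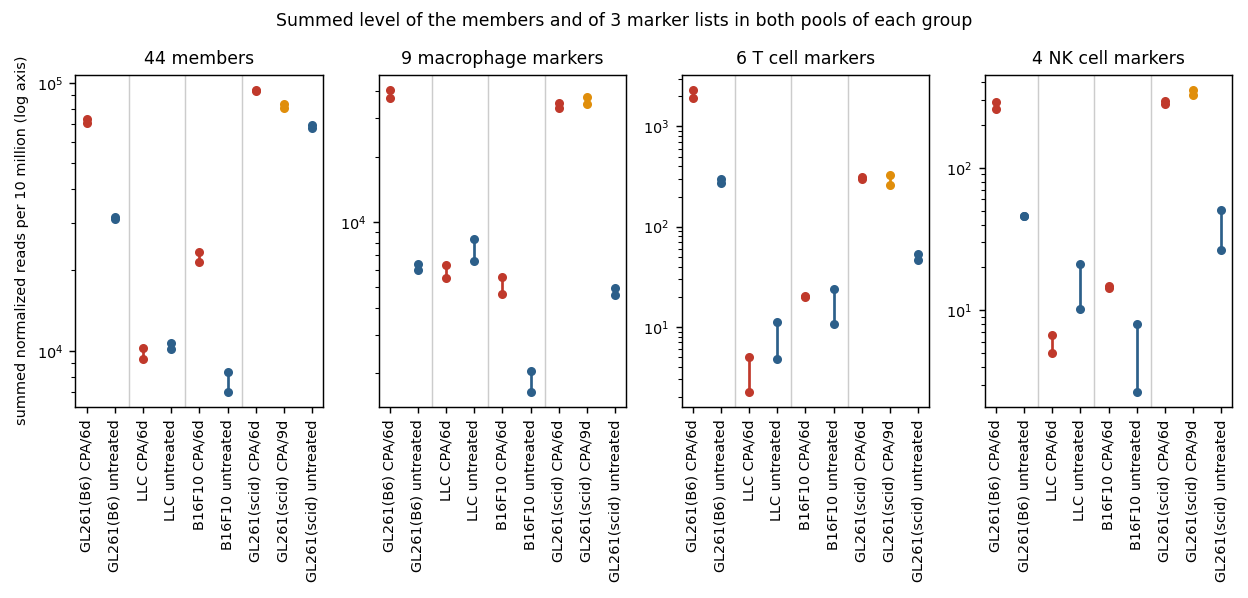
Summed normalized reads per 10000000 (log axes, each panel with its own range) of the 44 members and of the macrophage, T cell and NK cell marker lists in the 9 groups, with both pools of a group as joined points, red for CPA/6d, orange for CPA/9d and blue for untreated. Treated B16F10 pools exceed untreated ones for the members and the macrophage markers, while the T cell sums lie at 19.8 and 20.2 in treated and 10.7 and 24.1 in untreated pools.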

How the data were processed

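RNA was sequenced from 18 libraries, 2 pools of tumors in each of 9 groups. Per the labels and methods, reads were mapped with TopHat2 2.0.13 to mm9 and counted over RefSeq genes. The deposited values are a signal, the authors' mean over the 2 pools of DESeq-normalized counts. Their ratio, fold change and p-value columns were not used. Because the means are sums of whole counts over fixed size factors, the reads of each pool were recovered from them, and the pools of a group are told apart only by their total reads. Reads were scaled by trimmed mean of M values within each host, to 10000000 reads, and tested as log2(reads + 1) with limma 3.58.1 (R 4.3.3, moderated trended test, Benjamini-Hochberg over all genes tested). Genes needed 10 reads at median depth in 2 libraries and 15 in all. Steps were tested on simulated data. Alternatives covered scaling, the constant added, the filter, the call rule, the test and each pool. In each role group, reads of every pool were given for the member with the highest mean and those with the largest fold changes, and for the smallest response in each comparison. Members and lists were chosen with earlier results of these data known. Promoter sequences and shared 50-base words came from RefSeq (GRCm38.p6) and GENCODE annotation of mm9. Part of the pathway lists is not reported here.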

Additional observations from a re-analysis of the deposited data

Results flagged for a closer look

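The CPA responses differed between models or hosts by a test of the difference itself, with an interaction term in limma. For B16F10 minus GL261(B6), 8 members had a larger and 1 a smaller response, against 4.43% and 6.25% of all genes. On the log2 scale the differences were 2.31 for Usp18, 2.10 for Ddx58, 1.71 for Xaf1, 1.47 for Ifit1, 1.42 for Ifi35, 1.33 for Rtp4, 1.28 for Ifitm3 and 1.26 for Irf9, and -2.05 for Ifit2. For LLC minus GL261(B6), 18 members had a smaller response (12.7% of all genes), and for B16F10 minus LLC, 20 had a larger one (5.04% of all genes).

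For GL261(scid) minus GL261(B6), 9 members had a smaller response, against 1.30% of all genes. The differences were -1.66 for Oas2, -1.50 for Oas3, -1.41 for Dhx58, -1.18 for Usp18, -1.18 for Oas1a, -1.17 for Oasl2, -1.15 for Oasl1, -1.11 for Samd9l and -1.11 for Rsad2. The scid defect, the mouse strain and the library kit cannot be told apart there.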

How the results depend on the processing

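No paired analysis was possible because the deposited columns carry no pool numbers. No member changed direction among those called. With an adjusted p under 0.05 and no fold limit, 7 members were higher and 4 lower in LLC (13.6% and 14.5% of all genes). In scid CPA/6d 32 were higher and 6 lower (36.5% and 40.5%), and in CPA/9d 25 and 10 (37.2% and 40.8%). CPA/9d against CPA/6d gave 0 higher and 13 lower, against 4.4% and 2.07% of all genes. Untreated LLC against B16F10 gave 12 higher and 11 lower (38.9% and 38.1%). By that rule 19 responses were larger and 4 smaller for B16F10 minus GL261(B6) (18% and 19.1% of all genes). For LLC minus GL261(B6) 35 were smaller and 0 larger, against 27.7% of all genes smaller. For B16F10 minus LLC 32 were larger and 0 smaller, against 17.9% larger. For scid minus B6 41 were smaller and 0 larger, against 13.9% smaller. A single fit over all groups called 1 member higher in LLC. With 10 added before the log, the median was 1.55 in B16F10 and 2.67 for untreated GL261(B6) against LLC. Scaling over the 4 libraries of the fit alone, chosen after seeing the data, gave a median of 1.68 for treated GL261(B6) against treated B16F10. The cause of these shifts was not tested beyond the changed rule.

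Leaving out each pool in turn gave 0 to 1 members higher in LLC, with medians of -0.059 to 0.32. The medians ran from 1.35 to 1.39 in GL261(B6), 0.20 to 0.31 in scid CPA/9d, 2.23 to 3.21 for untreated GL261(B6) against LLC, 2.45 to 2.85 against B16F10, and -0.14 to 0.37 for untreated LLC against B16F10. For treated GL261(B6) they ran from 3.86 to 4.27 against LLC and 1.71 to 1.84 against B16F10. The larger responses in B16F10 than GL261(B6) numbered 7 to 17, and the smaller ones in LLC than GL261(B6) 11 to 23. The median difference was 1.28 to 1.72 for B16F10 minus LLC and -0.79 to -0.70 for scid minus B6. A pool left out ended the call of Ifi27l2a in GL261(B6), of Oas1b, Oas1g and Parp9 in B16F10, of Parp14 in scid CPA/9d, of Ifit2 for untreated GL261(B6) against LLC, of Isg15 for untreated LLC against B16F10, of Samd9l for treated GL261(B6) against LLC and of Eif2ak2, Bst2 and Xaf1 against B16F10. Among the differences it ended the calls of Rtp4 for B16F10 minus GL261(B6), of 7 of 18 for LLC minus GL261(B6) (Dhx58, Irf7, Oas2, Oas3, Oasl1, Isg20 and Epsti1) and of 5 of 20 for B16F10 minus LLC (Stat2, Oasl1, Dtx3l, Rtp4 and Tor3a). Depth limited most the members that missed the read minimum in untreated pools, Ifit3, Oas1a, Oas1b, Oas1g, Mx1, Mx2 and Ifi44 in LLC and Oas1b, Oasl1, Mx1, Mx2 and Ifi44 in B16F10.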
